A study of Mus musculus with 14 samples.

Results

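The genes described are 9 transcription factors of trophoblast and of the caudal embryo, taken from the deposited expression table by their symbols: Cdx1, Cdx2, Gata2, Gata3, Tfap2a, Tfap2c, Elf5, Hand1 and Eomes. They are 9 of 23174 rows, and each symbol was found. The study asked, by its title, whether the zinc finger factor Zfp281 limits the passage of mouse embryonic stem cells (ESCs) to extraembryonic endoderm (XEN) cells, and measured polyA RNA in 14 libraries. The 4 differentiated lines were WT3, which is wild type, KO3.34, a Zfp281 knockout, Rescue3.34, which is KO3.34 with Zfp281 restored, and KO2.6, a further knockout. WT3 and Rescue3.34 are together called the Zfp281-present lines. Each of the 4 lines gave 1 library as ESCs in serum and LIF, 1 at cXENp1 and 1 at cXENp3. Libraries at cXENp1 are of passage 1, after 48 h with 0.01 µM all-trans retinoic acid and 10 ng/mL activin A in XEN medium. Those at cXENp3 had the same treatment and are of passage 3 in XEN medium, after a passage on feeder fibroblasts. XENB1 and XEN5, the established XEN lines of wild-type genotype, gave 1 library each. All lines are of a 129S1 background by their labels. WT3 and Rescue3.34 stand for 1 line each, KO2.6 carries another number in its cell line field than in its title, and the p-values measure the spread between these libraries and lines only.

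In the early mouse embryo the outer cells form trophoblast, the lineage of the placenta, while the inner cells form the epiblast and the extraembryonic endoderm. CDX2, a caudal homeobox factor, together with EOMES, ELF5, GATA3 and TFAP2C, maintains trophoblast stem cells, and forced expression of several of these factors drives ESCs towards trophoblast. HAND1 acts later, in trophoblast giant cells, and GATA2 acts beside GATA3 in placental cells. Several of them also act in the embryo proper: CDX1 and CDX2 pattern the posterior body axis and regulate Hox genes, and Cdx1 is a known target of retinoic acid. EOMES acts in the primitive streak, TFAP2A in surface ectoderm and neural crest, HAND1 in lateral mesoderm, GATA2 in blood, and TFAP2C in germ cells and in naive pluripotent cells.

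Values are deposited FPKM, in which fragments are divided by transcript length and by the size of the library. Differences are on the log2(FPKM + 1) scale, where changes at low levels are compressed, and a gene is called at a limma adjusted p under 0.05. The sequencing depth is unknown, so the precision of the low values cannot be stated. Zfp281 had 25.1 to 38.6 FPKM in the Zfp281-present libraries, 1.29 to 3.96 in KO3.34, 0 to 0.559 in KO2.6, and 10.6 and 12.5 in XENB1 and XEN5. The KO2.6 ESC library stood apart: its 14 extraembryonic endoderm genes summed to 527 FPKM against 63.6 to 81.2 in the other ESC libraries, while its 12 pluripotency genes summed to 8092 FPKM, within the 7302 to 10048 of the others. Its description carries the prefix XH and those of the other ESC libraries JH. Line and prefix therefore cannot be told apart in its contrasts with the other ESCs. The Rescue3.34 library at cXENp3 had 1297 FPKM summed over 12 feeder fibroblast genes, against 39.1 in WT3 and 314 and 412 in the KO lines at that stage. The same list summed to 675 FPKM in XENB1 and 581 in XEN5, so its genes are also high in the XEN lines. Of 21 trophoblast marker genes in the table, 8 stayed under 1 FPKM in every library: Tpbpa and Prl3b1 were at 0 in all 14, and Prl3d1, Ctsq, Gcm1, Syna, Synb and Hsd3b6 had some values above 0. Prl2c2, a prolactin family gene of giant cells, was at 0 in every ESC and cXENp1 library. At cXENp3 it was at 0 in WT3, while Rescue3.34 had 0.202 FPKM, KO3.34 had 1.24 and KO2.6 had 1.57; XENB1 had 0.558 and XEN5 0.607. Values of exactly 0 may not mean low expression in this table: Sparc, Col4a1, Col4a2 and Lama1, basement membrane genes of the extraembryonic endoderm list, each read 0 in XENB1, XEN5 and the pair of KO libraries from cXENp3. Sparc had 141 to 852 FPKM at cXENp1, so the list's sums in those 4 libraries lack these 4 genes. In bulk libraries, fewer cells of a type and less RNA per cell cannot be told apart.

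**Figure D1:**
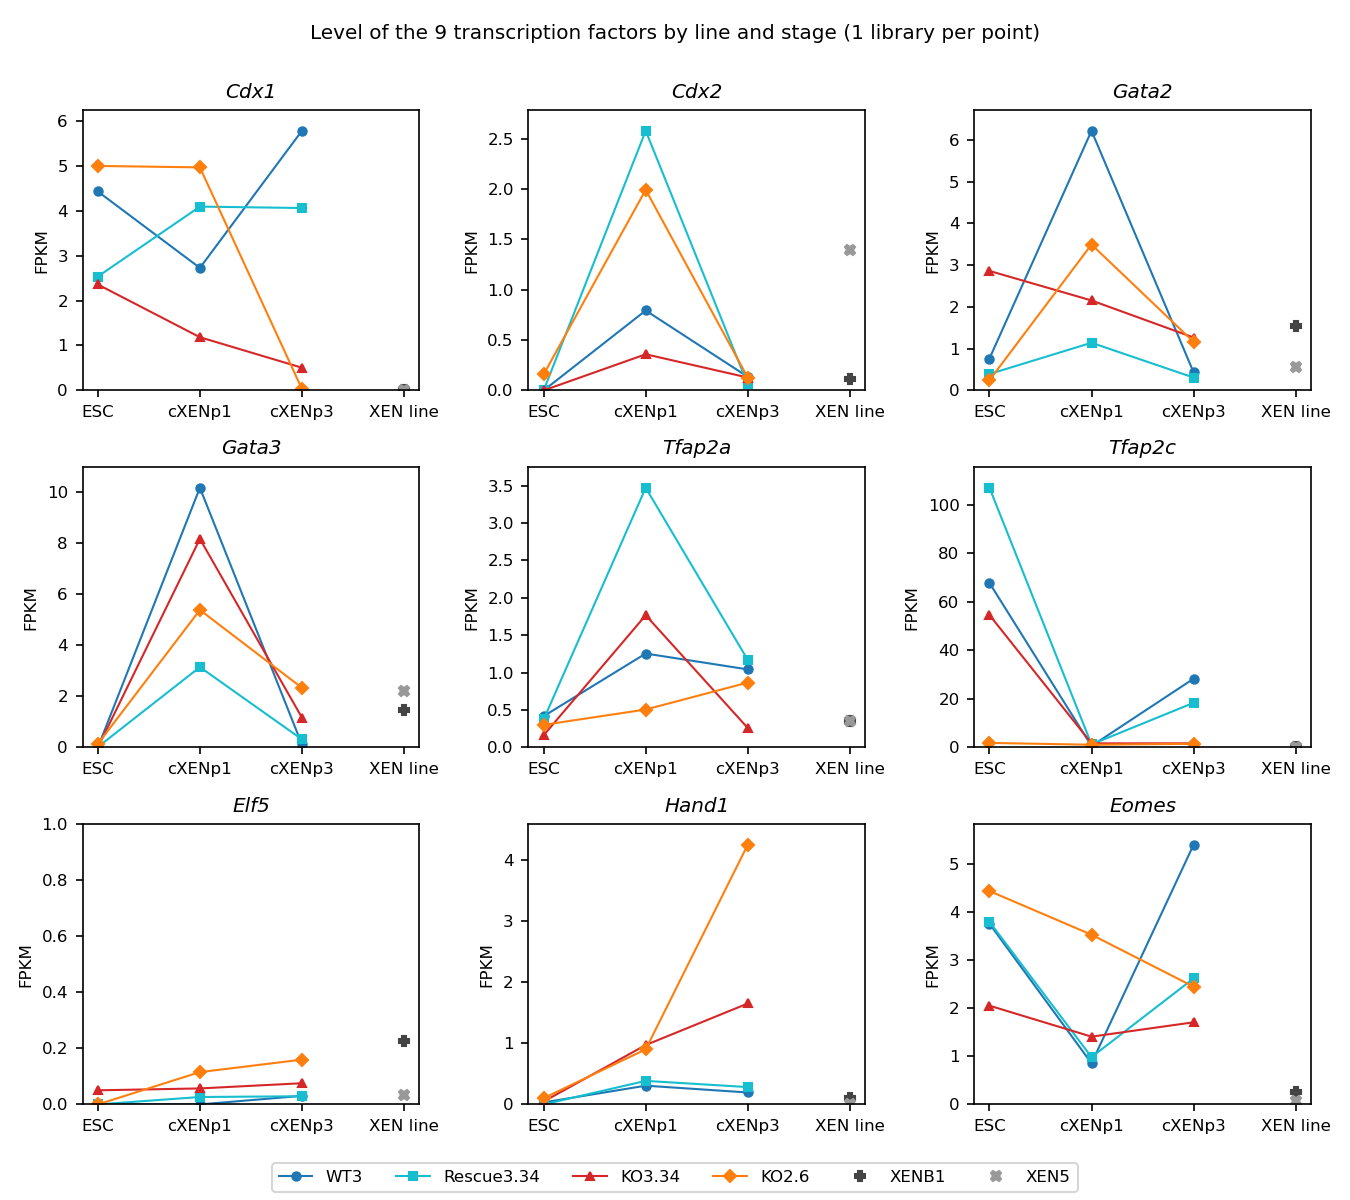
FPKM of each of the 9 factors (y axis, linear, its own range per panel) at ESC, cXENp1, cXENp3 and in the XEN lines; each point is 1 library, and lines join the stages of a cell line. Gata3 peaks at cXENp1 in all 4 lines, Tfap2c is high in 3 of 4 ESC libraries and at cXENp3 only in WT3 and Rescue3.34, Hand1 is highest in the KO lines at cXENp3, and Elf5 stays under 0.23 FPKM.

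In 3 of the 4 ESC libraries Tfap2c was the most abundant of the 9, and in KO2.6 it was below Cdx1 (5.00 FPKM) and Eomes (4.43). Tfap2c (XLOC_011498; mm9 chromosome 2, 172375093 to 172384121) had 67.7, 107 and 54.5 FPKM in WT3, Rescue3.34 and KO3.34, and 1.86 in KO2.6. Cdx1 (XLOC_009714, chromosome 18) averaged 3.58 ± 1.33 FPKM and Eomes (XLOC_021386; mm9 chromosome 9, 118387307 to 118395250) 3.51 ± 1.02 (SD, n = 4 lines), and these neighbours in the order did not differ beyond their spread. Next came Gata2 (XLOC_016665; mm9 chromosome 6, 88148658 to 88157026) at 1.07 ± 1.22 FPKM, with 2.86 in KO3.34, above Cdx1 (2.36) and Eomes (2.05) in that library, and at most 0.764 in the other lines, and Tfap2a (XLOC_005416; mm9 chromosome 13, 40811044 to 40829192) at 0.314 ± 0.112. Hand1 (XLOC_003406; mm9 chromosome 11, 57642215 to 57645649), Cdx2 (XLOC_016305; mm9 chromosome 5, 148112476 to 148118825), Gata3 (XLOC_011593; mm9 chromosome 2, 9778705 to 9800227) and Elf5 (XLOC_011073; mm9 chromosome 2, 103252255 to 103291145) had at most 0.159 FPKM in any ESC library.

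Elf5, an ETS factor that locks in trophoblast fate in the embryo, was the quietest of the 9. It was listed at 0 in 4 libraries, its highest value was 0.227 FPKM in XENB1, and it reached 0.160 in KO2.6 at cXENp3. It never reached the filter of 1 FPKM in 2 libraries and was tested in no comparison. The other 8 entered every comparison except that of XEN lines with ESCs, which tested 5 of them. A gene that passed the filter only through the group where it was high had to differ to be tested at all. In the course, Cdx2 reached 1 FPKM only in 2 cXENp1 libraries and Hand1 only in the 2 KO libraries at cXENp3. Among ESCs and XEN lines, Gata3 reached it only in XENB1 and XEN5, and Cdx1, Tfap2c and Eomes only in ESCs. Calls of these genes in favour of those groups are given as values and add no support to a count.

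Of the 8 members tested at cXENp1 against ESCs, Gata3, Cdx2 and Tfap2a rose and Tfap2c fell, beside 28.5% of 13191 genes called, 14.7% higher and 13.8% lower. Gata3 rose from 0, 0.0163, 0 and 0.136 FPKM in WT3, Rescue3.34, KO3.34 and KO2.6 to 10.2, 3.15, 8.17 and 5.38. The groups did not overlap, and the log2 difference was 2.80 (SE 0.36, adjusted p 0.000966). Cdx2 had 0.794, 2.58, 0.359 and 1.99 FPKM at cXENp1 in the same order of lines, against 0.159 in KO2.6 ESCs and 0 in the other 3. Its difference was 1.12 (SE 0.26, adjusted p 0.0141), and it was not tested without Rescue3.34 or without KO2.6, which hold its only values of at least 1 FPKM in the course. Tfap2a had 1.25, 3.47, 1.77 and 0.507 FPKM against 0.162 to 0.418 in ESCs, higher in 4 of 4 lines, a difference of 0.96 (SE 0.28, adjusted p 0.0314). That call was lost without WT3 (1.05, adjusted p 0.0718), without Rescue3.34 (0.71, adjusted p 0.18) and without KO3.34 (0.86, adjusted p 0.131).

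Tfap2c was low in every cXENp1 library, with 0.581 FPKM for WT3, 1.24 for Rescue3.34, 1.67 for KO3.34 and 1.09 for KO2.6. The log2 difference was -3.96 (SE 0.85, adjusted p 0.00996), and it was carried by 3 lines: KO2.6 moved from 1.86 to 1.09 FPKM, so its level was already low before treatment. Without KO2.6 the difference was -5.14 (adjusted p 0.0027), and without Rescue3.34 it was -3.42 (adjusted p 0.0716). Descriptions of the ESC libraries of WT3, Rescue3.34 and KO3.34 carry the prefix JH and all others XH, so the prefix differs from the stage only in KO2.6. With the prefix as a term, Tfap2c gave -1.27 (adjusted p 0.466), Cdx2 1.18 (adjusted p 0.158) and Tfap2a 0.62 (adjusted p 0.409), none of them called. Quantile normalization also ended the calls of Cdx2 (0.85, adjusted p 0.0524) and Tfap2a (0.56, adjusted p 0.204), while Gata3 was called in each alternative in which it was tested.

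The other 4 tested members were not called between ESC and cXENp1. Gata2 had 6.22, 1.14, 2.15 and 3.49 FPKM at cXENp1 in WT3, Rescue3.34, KO3.34 and KO2.6, above the ESC value of the same line in 3 of 4 lines (difference 1.05, SE 0.39, adjusted p 0.0672). Hand1 had 0.307, 0.385, 0.972 and 0.901 FPKM, above every ESC value, with a difference of 0.63 (adjusted p 0.173) that became 2.26 (adjusted p 0.0202) with a pseudocount of 0.1. Eomes had 0.854, 0.982, 1.41 and 3.53 FPKM, below the ESC value in 4 of 4 lines (-0.81, adjusted p 0.0883), and was called after quantile normalization (-1.15, adjusted p 0.0362). Cdx1 had 2.73, 4.09, 1.18 and 4.96 FPKM against 4.43, 2.54, 2.36 and 5.00 in ESCs. Its difference was -0.16 with a 95% interval from -1.30 to 0.98, so changes within that interval in either direction were not resolved.

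**Figure D2:**
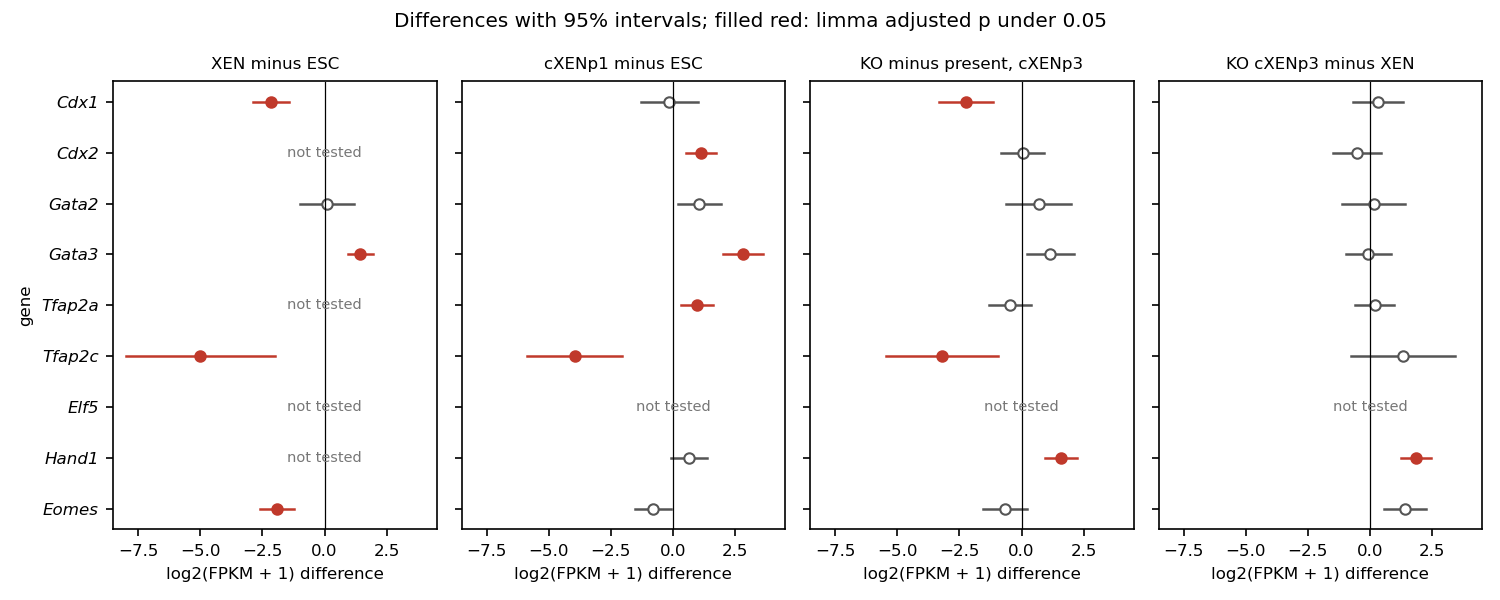
Difference in log2(FPKM + 1) (x axis) of each factor (y axis) in 4 comparisons, with 95% intervals; filled red points passed an adjusted p under 0.05, open grey points did not, and genes under the filter are marked as not tested. Gata3, Cdx2 and Tfap2a lie to the right of 0 at cXENp1 and Tfap2c to the left, while Cdx1 and Tfap2c lie to the left and Hand1 to the right in the cXENp3 panel.

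The genes around these factors at cXENp1 were read from lists of trophoblast, streak, Hox, surface ectoderm and lateral mesoderm genes. Over all genes, 14.7% were called higher and 13.8% lower. Posterior Hox genes, which CDX factors regulate in the embryo, were called higher in 17 of 21 tested and lower in 0, with a median of 2.76 against 0 over all genes. Some listed genes, such as Hoxa6, Hoxb5 and Hoxc5, reached 1 FPKM in the course only at cXENp1. They had to be higher there to be tested. Hoxa5 (6.17), Hoxb8 (5.70) and Hoxb6 (5.39) had the largest differences. Lateral mesoderm and cardiac genes were called higher in 9 of 16 and lower in 1, among them Meis1 (4.17), a HOX cofactor, and Tbx2 (3.94). Of 13 trophoblast marker genes tested, 4 were higher and 0 lower, median 1.27. They include Peg10 (5.92; mean 595 FPKM against 34.3), a retrotransposon-derived placental gene, Cited1 (2.01) and Plac1 (1.59; 2.1 against 0.0166). Cited1 had 49.0 FPKM in KO2.6 and 2.03 to 4.25 in the other lines at cXENp1, and overlapped with KO2.6 ESCs at 2.67. Of 24 other trophoblast transcription factor and signalling genes, 5 were higher, among them Id2 (4.25), the receptor Fgfr2 (3.53) and Msx2 (3.07). In that list 9 were lower, among them Esrrb (-6.77), the ligand Fgf4 (-6.18) and Nr0b1 (-4.62), which pluripotent cells also express. Streak and tailbud genes gave 4 higher and 1 lower of 10, with T (Brachyury) and Cdx4 under 1 FPKM in every library. Surface ectoderm genes gave 3 higher and 1 lower of 12, led by Msx1 (4.90).

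Reference sequence before the transcription start was taken for 6 of the 9 genes from RefSeq's GRCm38.p6 promoters. Tfap2c and Hand1 had no entry there, and member promoters on the chromosome of Cdx1 were left out. The stretches of the 3 members that rose together at cXENp1 and of Eomes, which was not called there, are shown for comparison, up to 250 bases ending at the RefSeq start or, for Cdx2, at the first base of its annotated leader. Capitals mark matches to GGGGAGG, a G-rich core of the kind ZFP281 binds, which reads CCTCCCC on the strand shown.
Gata3, chr2:9878601-9878850, minus strand: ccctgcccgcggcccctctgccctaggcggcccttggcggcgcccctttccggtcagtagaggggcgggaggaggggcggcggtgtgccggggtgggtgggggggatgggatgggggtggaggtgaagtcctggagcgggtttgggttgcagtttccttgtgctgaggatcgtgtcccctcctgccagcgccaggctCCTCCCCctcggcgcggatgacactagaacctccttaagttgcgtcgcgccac
Cdx2, chr5:147307271-147307499, minus strand: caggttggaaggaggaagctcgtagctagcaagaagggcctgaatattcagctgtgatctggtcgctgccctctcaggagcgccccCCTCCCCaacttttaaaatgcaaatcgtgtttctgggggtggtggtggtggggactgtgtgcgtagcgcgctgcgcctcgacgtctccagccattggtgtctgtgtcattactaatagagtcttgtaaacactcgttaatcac
Tfap2a, chr13:40734921-40735170, minus strand: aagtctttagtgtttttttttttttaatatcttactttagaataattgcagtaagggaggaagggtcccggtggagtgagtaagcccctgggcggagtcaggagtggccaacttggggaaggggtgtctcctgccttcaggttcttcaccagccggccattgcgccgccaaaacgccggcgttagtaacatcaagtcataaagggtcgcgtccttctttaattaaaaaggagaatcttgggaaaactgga
Eomes, chr9:118477939-118478188, plus strand: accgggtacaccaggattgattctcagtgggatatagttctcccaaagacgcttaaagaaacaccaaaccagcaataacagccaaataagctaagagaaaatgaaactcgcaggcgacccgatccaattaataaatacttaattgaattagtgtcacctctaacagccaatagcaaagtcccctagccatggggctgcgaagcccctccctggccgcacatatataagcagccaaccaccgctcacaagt
Gata3 had its match at bases -53 to -47 from the start and Cdx2 at -164 to -158. The stretch shown for Tfap2a, before its farther start, and that of Eomes had none. A nearer Tfap2a start had matches at -84 to -78 and at -40 to -34, and a Gata2 start had 1 at -227 to -221. The matches at the nearer Tfap2a start lie in bases annotated as untranslated sequence of that gene. In all, 4 of the 9 stretches of these 6 genes held GGGGAGG on either strand, against 17.2% of 32851 RefSeq promoters cut to the same length. For these counts no stretch was trimmed of untranslated sequence. The TEAD motif CATTCC was in 2 of the 9 (an Elf5 and a Gata2 start) against 12.6% of all promoters. Both of those stretches are annotated over their whole length as untranslated sequence of the same gene. The nuclear receptor half-site AGGTCA (14.02% of all), the GATA motif AGATAA (9.99%) and the TATA box letters TATAAA (12.4%) were in 0 of the 9. The matches do not overlap each other, and the stretches shown have a GC content of 70.0% (Gata3), 55.2% (Cdx2, over 250 bases), 47.6% (Tfap2a) and 46.4% (Eomes).

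From cXENp1 to cXENp3 the called factors of the Zfp281-present lines moved back towards their ESC levels. In WT3 and Rescue3.34, Tfap2c and Eomes rose and Gata3 fell, 3 of 8 members tested, beside 10.5% of genes called, 4.85% higher and 5.67% lower. Tfap2c went from 0.581 to 28.3 FPKM in WT3 and from 1.24 to 18.4 in Rescue3.34 (difference 3.66, SE 0.88, adjusted p 0.0373). Both values remained below the same lines' ESC levels of 67.7 and 107. Eomes went from 0.854 to 5.39 FPKM in WT3 and from 0.982 to 2.62 in Rescue3.34 (1.33, SE 0.30, adjusted p 0.0301), and without line as a block its adjusted p was 0.059. Gata3 went from 10.2 to 0.115 FPKM and from 3.15 to 0.316 (-2.49, SE 0.43, adjusted p 0.0131). Cdx2 had 0.135 and 0.0606 FPKM at cXENp3 (-1.21, adjusted p 0.0719) and Gata2 0.434 and 0.308 (-1.52, adjusted p 0.109), lower than at cXENp1 in both lines and not called. These calls rest on 2 lines. Without WT3, Tfap2c gave 3.11 (adjusted p 0.488), Eomes 0.87 (adjusted p 0.606) and Gata3 -1.66 (adjusted p 0.276). Without Rescue3.34, Tfap2c gave 4.21 (adjusted p 0.151) and Eomes 1.79 (adjusted p 0.0843). With no filter on low values, Tfap2c had an adjusted p of 0.0849 and Eomes 0.0679.

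In the KO lines over the same passages Cdx1 and Gata3 fell and Hand1 rose, 3 of 8 tested beside 22.5% of genes called, 12.9% higher and 9.58% lower. Cdx1 went from 1.18 to 0.505 FPKM in KO3.34 and from 4.96 to 0.0319 in KO2.6 (-1.53, SE 0.46, adjusted p 0.048). Without KO2.6 the difference of Cdx1 was -0.54 (adjusted p 0.478). Gata3 went from 8.17 to 1.17 FPKM in KO3.34 and from 5.38 to 2.34 in KO2.6 (-1.51, SE 0.43, adjusted p 0.041). Hand1 went from 0.972 to 1.65 FPKM and from 0.901 to 4.25 (0.95, SE 0.29, adjusted p 0.0498), and was not tested without either KO line. Tfap2c stayed low, at 1.67 and 1.09 FPKM at cXENp1 and 1.68 and 1.49 at cXENp3. The feeder fibroblast genes moved in the same passages: all 12 had positive differences, 4 called higher, with a median of 2.49, and their sums went from 42.7 to 314 FPKM in KO3.34 and from 25.0 to 412 in KO2.6. Their part in these changes was not tested. Of 13 trophoblast markers tested here, 1 was called higher and 2 lower, with a median of -0.42. The higher one was Prl2c2, the giant cell gene (1.26, adjusted p 0.00574), which passed the filter only through the KO libraries at cXENp3. The lower ones were Peg10 (-3.43, adjusted p 0.03) and Sct (-1.78, adjusted p 0.0216). All 3 member calls lie close to the threshold. Leaving out WT3 gave adjusted p-values of 0.0817 for Cdx1 and 0.12 for Hand1, and leaving out Rescue3.34 gave 0.0824 and 0.119. Leaving out KO3.34 gave Gata3 -0.94 (adjusted p 0.344), and leaving out KO2.6 gave it -2.08 (adjusted p 0.0772). A pseudocount of 0.1 ended the calls of Gata3 (adjusted p 0.09) and Hand1 (adjusted p 0.116), no filter those of Cdx1 (0.0991) and Gata3 (0.0778), and quantile normalization that of Cdx1 (0.0925).

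Whether these passage changes differ between KO and Zfp281-present lines was tested directly. None of the 8 members was called by limma, beside 12% of genes, 7.35% higher and 4.65% lower. At an unadjusted p under 0.05, 4 members and 33.8% of genes passed. Those 4 were Eomes (-1.44, adjusted p 0.0617), Cdx1 (-1.96, adjusted p 0.0834), Tfap2c (-3.54, adjusted p 0.0939) and Hand1 (1.07, adjusted p 0.114). Without KO3.34, Cdx1 (-2.96, adjusted p 0.0296) and Tfap2c (-3.41, adjusted p 0.0275) were called, and without KO2.6, Tfap2c (-3.66, adjusted p 0.0275). Gata3, which fell in both pairs of lines, had a difference in change with an interval from -0.43 to 2.39. Prl2c2 was called in this test (1.13, adjusted p 0.0494). It passed the filter only through the KO libraries at cXENp3, so this call gives no support beyond its values. Prl2c2 belongs to a family of close copies, and its reads may be shared with them.

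At cXENp3 the levels of several factors differed between the KO and the Zfp281-present lines. Cdx1 and Tfap2c were lower in KO and Hand1 was higher, 3 of 8 members tested beside 41.9% of genes called, 22.9% higher and 19% lower, so the share of members is near the background. Cdx1 had 5.78 FPKM in WT3 and 4.06 in Rescue3.34 against 0.505 in KO3.34 and 0.0319 in KO2.6. The mean in Zfp281-present lines was 18.3 times that of the KO lines, and the difference of KO minus present was -2.23 (SE 0.48, adjusted p 0.00556). Tfap2c had 28.3 and 18.4 FPKM against 1.68 and 1.49, a ratio of 14.7 of the means, and a difference of -3.21 (SE 1.01, adjusted p 0.0284). Hand1 had 0.195 and 0.284 FPKM against 1.65 and 4.25, a ratio of 12.3 of the KO to the present mean, and a difference of 1.59 (SE 0.29, adjusted p 0.0025). The 2 groups, of 2 libraries each, do not overlap for these genes, nor for any other member but Cdx2, so this does not set the called genes apart. The share of all genes without overlap is not given here, so nothing about the members is read from it. Hand1 was tested here only through the 2 KO libraries, where it is high. Without WT3, Cdx1 gave -2.02 (adjusted p 0.0996), Tfap2c -2.91 (adjusted p 0.225) and Hand1 1.54 (adjusted p 0.0726). Without Rescue3.34, Tfap2c gave -3.50 (adjusted p 0.114), and with no filter its adjusted p was 0.0604. Hand1 was not tested without either KO line. The Rescue3.34 library, with its high feeder fibroblast sum, lay on the side of WT3 for each of these 3 genes.

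Gata3 lay next to the threshold at that stage. It had 0.115 and 0.316 FPKM in the Zfp281-present lines and 1.17 and 2.34 in the KO lines (1.15, SE 0.42, adjusted p 0.0507). It was called with a pseudocount of 0.1 (2.56, adjusted p 0.0147), without the trend (adjusted p 0.0491) and from the 4 libraries of that stage alone (adjusted p 0.0477). Eomes had 5.39 and 2.62 FPKM against 1.71 and 2.45 (-0.66, adjusted p 0.208). Gata2 had 0.434 and 0.308 against 1.27 and 1.16, Tfap2a 1.04 and 1.17 against 0.260 and 0.866, and neither was called. Cdx2 was between 0.0606 and 0.135 FPKM in all 4 lines.

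Before passage 3 the KO and Zfp281-present lines gave no called member. In ESCs 0 of 8 were called, beside 1.97% of genes (1.05% higher, 0.917% lower), and at an unadjusted p under 0.05 Tfap2c alone passed, as did 20.9% of genes. Its difference of -2.77 (adjusted p 0.156) follows KO2.6: without KO2.6 it was -0.63 (adjusted p 0.412), and without KO3.34 it was -4.91 (adjusted p 0.00429). KO2.6 ESCs also had the high extraembryonic endoderm sum given above, with Gata4 at 12 FPKM against at most 2.67 in the other ESC libraries, Bmp4 at 103 against at most 15.5, Id1 at 353 against at most 34.1 and Peg10 at 129 against at most 3.56. The part of this in the low Tfap2c was not tested. KO2.6 is also the only ESC library with the description prefix XH, so its line and its prefix cannot be told apart here. At cXENp1 again 0 of 8 were called, beside 0.485% of genes (0.364% higher, 0.121% lower), and at an unadjusted p under 0.05 no member passed, against 11.3% of genes. Hand1 had 0.972 and 0.901 FPKM in the KO lines against 0.307 and 0.385 (0.53, adjusted p 0.558), and Eomes 1.41 and 3.53 against 0.854 and 0.982 (0.78, adjusted p 0.51), differences that were not called.

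The lists were also examined at cXENp3, against a background over all genes of 22.9% higher and 19% lower in the KO lines. Of 13 trophoblast markers tested, 6 were called higher in KO and 1 lower, median 1.13 against 0.01 over all genes. Cited1 (3.58; 24.6 against 1.09 FPKM), Rhox6 (2.45; 8.38 against 0.786) and Wnt7b (1.66; 3.17 against 0.289) were higher, and Ascl2, a factor of placental precursor cells, was lower (-1.29; 0.0718 against 1.69). The called genes Cited1 and Wnt7b were also higher in the XEN lines than in ESCs, with means of 451 against 0.975 FPKM and of 18.5 against 0.438, so these markers are also high in XEN cells. Rhox6 belongs to a family of close copies, and its reads may be shared with them. Lateral mesoderm and cardiac genes, the list of HAND1's embryonic role, gave 7 higher and 1 lower of 16, led by the ligand Bmp2 (5.32; 44.0 against 0.133 FPKM). Prl2c2 among the trophoblast markers and Mef2c among the lateral mesoderm genes passed the filter only through the KO libraries at cXENp3. They had to be higher there to be tested. Posterior Hox genes gave 4 higher and 0 lower of 21. Streak and tailbud genes gave 1 higher and 3 lower of 10, the lower ones being Fgf17 (-2.55), the WNT effector Lef1 (-2.21) and Mesp2 (-0.84). The shares called in these last lists, 4 of 21 and 4 of 10, are below or near the 41.9% of all genes. Beside these, pluripotency genes were lower in 11 of 12 and extraembryonic endoderm genes higher in 9 of 13 in the KO lines. The 3 endoderm genes called lower there are Sparc, Col4a1 and Col4a2, which are listed at 0 in the KO libraries and are not read as low expression. The part of that difference in the levels of the 9 factors was not tested.

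**Figure D3:**
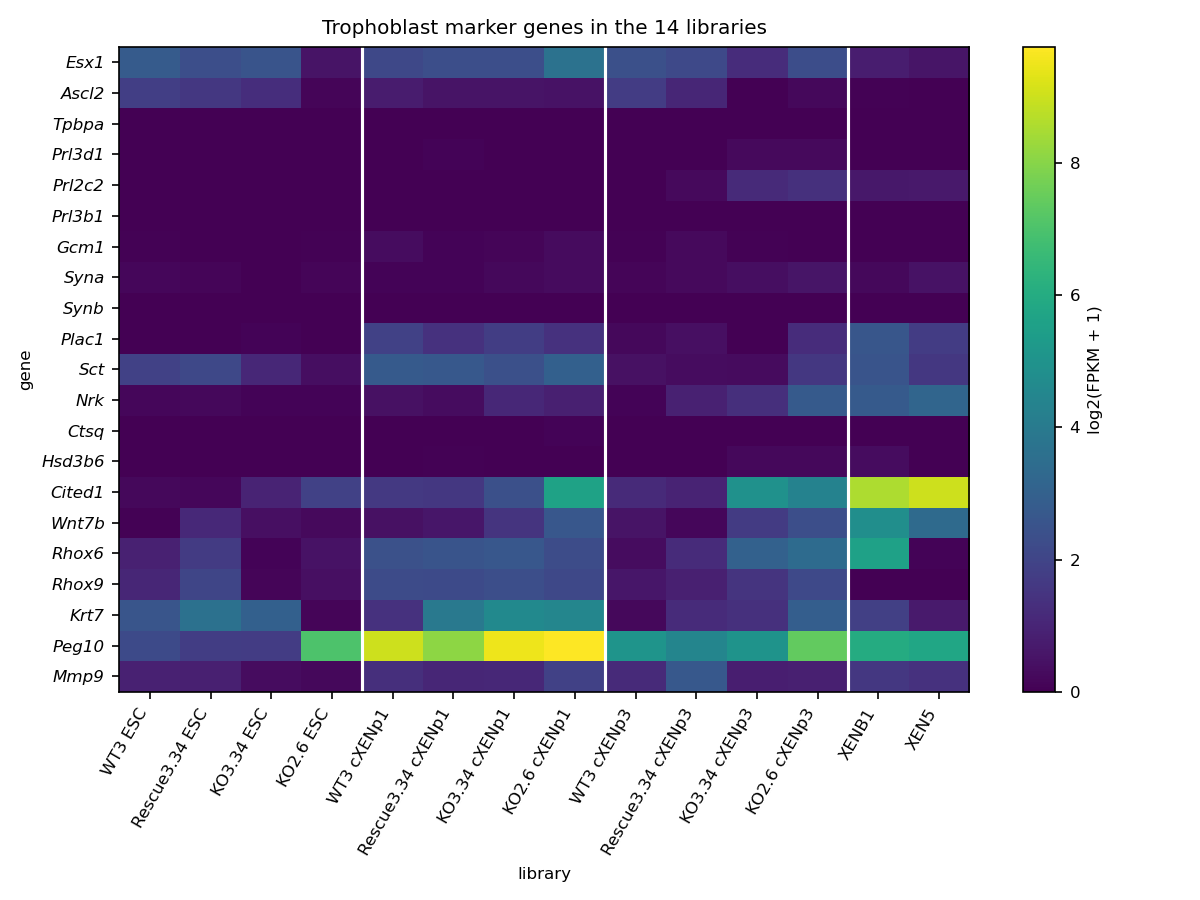
Heat map of log2(FPKM + 1) (colour) of 21 trophoblast marker genes (rows) in the 14 libraries (columns), with white lines between ESC, cXENp1, cXENp3 and XEN libraries. Tpbpa and Prl3b1 are at 0 throughout, Peg10 is brightest at cXENp1 (277 to 868 FPKM), and Cited1 is brightest in the XEN lines (379 and 524 FPKM).

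In the XEN lines most of the 9 factors were low. Of the 5 tested against ESCs, Cdx1, Tfap2c and Eomes were lower and Gata3 was higher, beside 41.9% of 12372 genes called, 22.2% higher and 19.7% lower. Each of these called members passed the filter only through the group where it was high, so their count gives no support. Cdx1 was listed at 0 in XENB1 and XEN5 (-2.15, SE 0.31, adjusted p 0.00131), and such a 0 may be a failed estimate, as for the basement membrane genes above. Tfap2c had 0.0424 and 0.0237 FPKM (-4.99, SE 1.29, adjusted p 0.0167), lower than in any library of the course. Eomes had 0.250 and 0.0786 FPKM (-1.92, SE 0.29, adjusted p 0.00168). Gata3 had 1.47 and 2.21 FPKM against at most 0.136 in ESCs (1.44, SE 0.21, adjusted p 0.00144). It passed the filter through these 2 libraries alone and was not tested without either of them, and its XEN mean was below that at cXENp1 by a ratio of 3.65. The Tfap2c call was lost without KO3.34 ESCs (-4.74, adjusted p 0.051), XENB1 (-5.01, adjusted p 0.0942) or XEN5 (-4.98, adjusted p 0.0972). Without KO2.6 ESCs it was -6.17 (adjusted p 2e-05). Both XEN libraries carry the description prefix XH, as only KO2.6 does among the ESC libraries, so prefix and group nearly coincide in this comparison. Gata2 had 1.55 and 0.559 FPKM and overlapped with ESCs. Cdx2 was at 0.112 FPKM in XENB1 and 1.39 in XEN5, and Tfap2a had 0.350 and 0.358. Hand1 had 0.0971 and 0. Of 12 trophoblast markers tested, 5 were higher and 0 lower in XEN, among them Nrk (2.84; 6.95 against 0.102 FPKM). Of those tested, Nrk, Plac1 and Mmp9 passed the filter only through the XEN lines and had to be higher there to be tested.

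Between the KO lines at cXENp3 and the XEN lines, Hand1, at 1.65 and 4.25 FPKM in the KO libraries against 0.0971 in XENB1 and 0 in XEN5, was the member called (1.83, SE 0.28, adjusted p 0.00585), 1 of 8 tested beside 4.12% of 13386 genes called, 2.64% higher and 1.48% lower. It passed the filter only through these 2 KO libraries and was not tested without either, so this call gives no support beyond its values. Eomes had 1.71 and 2.45 FPKM against 0.250 and 0.0786 (1.40, SE 0.38, adjusted p 0.067), and was called with a pseudocount of 0.1 (3.10, adjusted p 0.012). Tfap2c had 1.68 and 1.49 FPKM against at most 0.0424, with a difference of 1.32 whose interval ran from -0.78 to 3.42. Cdx1, at 0.505 and 0.0319 FPKM against 0 and 0, gave 0.32 (adjusted p 0.761). Gata3 had 1.17 and 2.34 FPKM against 1.47 and 2.21, with an interval of the difference from -0.97 to 0.84.

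**Figure D4:**
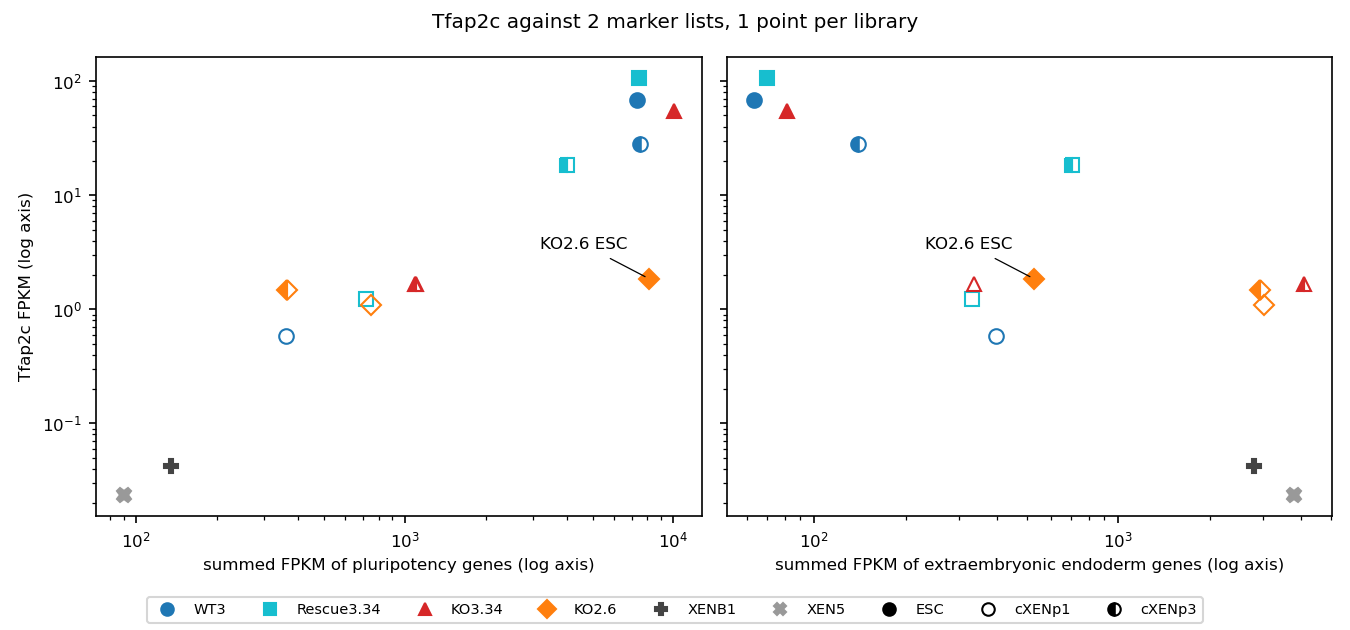
Tfap2c FPKM (y axis, log) against the summed FPKM of 12 pluripotency genes (left) or 14 extraembryonic endoderm genes (right; x axes, log; 4 of the 14 are listed at 0 in the KO cXENp3 and XEN libraries), 1 point per library, with colour and shape for the line and fill for the stage. KO2.6 ESC, with 8092 FPKM of pluripotency genes and 1.86 FPKM of Tfap2c, lies apart from the other ESC libraries, which have at least 54.5 FPKM of Tfap2c; the 2 KO3.34 points after treatment overlap in the left panel.

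Set against the pluripotency genes, Tfap2c was above 18 FPKM only in libraries with at least 4023 FPKM summed over them, which are 3 ESC libraries and the Zfp281-present libraries at cXENp3. KO2.6 ESCs are the exception, with 8092 FPKM of pluripotency genes and 1.86 of Tfap2c. The XEN lines had the lowest sums, 134 FPKM in XENB1 and 90.2 in XEN5, and the lowest Tfap2c. The libraries share lines and stages, so no correlation is drawn from them.

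Among paralogues of the 9 factors, Gata4 and Gata6, the GATA factors of extraembryonic endoderm, were higher in KO than in Zfp281-present lines at cXENp3 (7.83 and 5.59, adjusted p 0.000632 and 0.0021) and in XEN lines than in ESCs (6.93 and 6.38). At cXENp3 the KO lines had 410 and 323 FPKM of Gata4, where Gata3 had 1.17 and 2.34. Gata5 rose at cXENp1 (1.39, adjusted p 0.00181), with 1.25 to 2.88 FPKM there and at most 0.0619 in ESCs. It passed the filter only through the cXENp1 libraries, so this call gives no support beyond its values. Hand2 rose at cXENp1 as well (2.26, adjusted p 0.00982), from at most 0.0198 FPKM to between 0.990 and 11.1, and at cXENp3 it was highest in Rescue3.34 at 8.29 FPKM, where Hand1 had 0.284. Among the ETS relatives of Elf5, Elf1 was higher in KO at cXENp3 (2.89, adjusted p 9.24e-05). Elf3, an epithelial ETS factor, was above 8 FPKM in every library and lower in XEN lines than in ESCs (-1.58, adjusted p 0.0294). Of the 17 paralogues, 8 stayed under 1 FPKM in all libraries, among them Cdx4, Tfap2b, Tfap2d and Tfap2e.

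The genes whose profile over the 14 libraries was most like that of each factor were ranked by Pearson r of log2(FPKM + 1), as a description among 11146 genes. Gata3 was most like Hoxc9 (r = 0.97), Cyp26a1, the retinoic acid hydroxylase (0.95), and Arg1 (0.95). Cyp26a1 had at most 0.612 FPKM in ESCs and 445 to 649 at cXENp1. Tfap2c was most like Foxn4 (0.98), Crtac1 (0.97) and Kbtbd11 (0.97), which were low in KO2.6 ESCs, with 0.676, 2.65 and 0.168 FPKM against at least 3.44, 27.3 and 13 in the other ESC libraries. Hand1 was most like Foxl2 (0.96), Fndc1 (0.95) and Kctd12 (0.94), each highest in KO2.6 at cXENp3. Cdx1 was most like AI848285 (0.95), Fdps (0.93), an enzyme of isoprenoid synthesis, and Alpl (0.92). Eomes was most like Usb1 (0.94), Nadk (0.93) and F2rl1 (0.92), and Tfap2a like Ube2e3 (0.94), Sox3 (0.91) and Hsd11b2 (0.90). Gata2 (Phkb 0.89, Slk 0.89, Ebf4 0.83) and Cdx2 (Id2 0.83, Polr2m 0.82, Apbb1 0.82) had weaker matches. The libraries share 4 lines and few stages, so a few libraries set these values. KO2.6 ESCs and KO2.6 at cXENp3 were among the ranked libraries. Levels shared there follow from the choice of the genes and are no separate finding.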

How the data were processed

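The authors deposited 1 table of 23174 gene loci and 14 columns, whose values were taken as FPKM. They are not whole and never negative, their sums run from 424406 to 718138 per library, and Cufflinks 2.1.1 is named in the submitters' processing notes beside STAR 2.5.3 and build mm9. The annotation is not given in the sources used here. No counts are in the table, so no interval or floor for depth was computed. Starts were shifted by 1 to count from 1.

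Genes with at least 1 FPKM in 2 of the fitted libraries were fitted with limma 3.58.1 (lmFit, eBayes with trend; R 4.3.3) on log2(FPKM + 1), and p-values were adjusted by Benjamini-Hochberg over all genes tested in each of 9 comparisons. Stage comparisons had line as a block, since the labels tie each library to its line. Libraries of 1 line correlated at 0.03 to 0.40 in their deviations from the stage mean, best with their own line in 6 of 12 pairs. KO and Zfp281-present lines were compared in 6 groups of 2 with a shared spread, and KO at cXENp3 with XEN in 7. Fits were tested on simulated data.

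Members and lists were chosen with earlier results of these data known. All 9 members are named, and in each list the called genes with the largest change, up to 3 in each direction; a gene that this rule selects is not reported here. Genes picked to describe KO2.6 ESCs, Prl2c2 and the endoderm genes listed at 0 were chosen after their values were seen. For likeness, the 3 genes with the highest r are given, for each member with 1 FPKM in 2 libraries. In 259 rows the symbol had already occurred in the table. Promoter coordinates are GRCm38.p6, gene coordinates mm9, and leader bases are those of GENCODE. Alternatives covered the pseudocount, the filter, quantile normalization, the trend, the block, the description prefix, the libraries of 1 stage, and leaving out each line or library.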

Additional observations from a re-analysis of the deposited data

Results flagged for a closer look

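In 4 of 27 sets of 4 lines at a stage, a factor had 1 library far from the other 3, where chance gives about 1 in 20 for values that vary freely. That rate does not apply where the other 3 are at 0, as for Cdx2 and Elf5 in ESCs. All 4 values are under 0.2 FPKM. Cdx2 was at 0.159 FPKM in KO2.6 ESCs and at 0 in the other 3 ESC lines. Gata3 was at 0.136 FPKM in KO2.6 ESCs, against at most 0.0163 in the others. Elf5 was at 0.0503 FPKM in KO3.34 ESCs and at 0 in the others. At cXENp3 Cdx2 was at 0.0606 FPKM in Rescue3.34, against 0.127 to 0.135 in the other lines. Tfap2c in KO2.6 ESCs, at 1.86 FPKM against at least 54.5, had a gap of 0.82 of the range and stayed just under the limit used for 4 values.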

How the results depend on the processing

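The alternatives were followed for 37 member differences, those with an unadjusted limma p under 0.1 and others picked for reporting. This choice favours large differences, so a stable sign was largely set in advance. None of the 37 changed sign: 284 recomputed values kept their side of the threshold, 37 fell short of it and 11 newly passed. A stricter filter tests fewer members. With a mean of at least 5 FPKM the members called were 1 (XEN against ESC), 1 (cXENp1 against ESC), 0 (KO, cXENp1 to cXENp3), 1 (present, cXENp1 to cXENp3), 1 (KO against present, cXENp3) and 0 (KO cXENp3 against XEN), and the genes called 2369 (cXENp1 against ESC), 1846 (KO passage), 856 (present passage), 13 (KO against present, cXENp1) and 236 (KO cXENp3 against XEN). With no filter, 1 member was called in each passage comparison, with 935 genes in their difference and 136 for KO against present at cXENp1. A pseudocount of 0.1 gave 1 member in the KO passage, 2 against XEN, and 19 genes for KO against present at cXENp1. The prefix term gave 439 genes and 1 member for cXENp1 against ESC, and 21 genes for KO against present in ESCs. Quantile normalization gave 160 and 100 genes for KO against present in ESCs and at cXENp1. It moved the share of higher calls from 75% to 64% at cXENp1 and from 64.1% to 49.9% for KO cXENp3 against XEN, and the median of all genes for KO against present at cXENp3 from 0.01 to -0.10. The libraries of 1 stage alone gave 2, 3 and 3487 genes for KO against present at ESC, cXENp1 and cXENp3. The cause was not tested beyond the number of genes or libraries left.

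Leaving out 1 line or library gave 2098 (without XEN5; 2254 without XENB1) to 6235 genes and 2 to 4 members for XEN against ESC, 1244 (without Rescue3.34; 1285 without KO3.34, 2161 without WT3) to 3749 genes and 1 to 3 members for cXENp1 against ESC, and 1268 (without KO3.34; 1642 without KO2.6, 1958 without Rescue3.34) to 1968 (without WT3) genes and 0 to 1 members for the KO passage. It gave 72 (without WT3; 376 without Rescue3.34) to 2068 genes and 0 to 3 members for the present passage, and 12 (without WT3; 405 without Rescue3.34, 649 without KO2.6) to 1688 genes and 0 to 2 members for their difference. For KO against present it gave 1 (without WT3 or Rescue3.34) to 1993 (without KO3.34; 42 without KO2.6) genes and 0 to 1 members in ESCs, 4 (without WT3 or Rescue3.34; 7 without KO2.6) to 638 (without KO3.34) genes at cXENp1, and 1057 (without WT3; 2875 without Rescue3.34) to 6150 genes and 0 to 2 members at cXENp3. Against XEN it gave 212 (without KO2.6 cXENp3; 228 without XEN5) to 698 genes and 0 to 1 members. Without the replicate block, that is, without pairing by line, 3383 genes and 4 members were called for cXENp1 against ESC, 2806 and 3 for the KO passage, 1441 and 2 for the present passage, and 1510 and 0 for their difference. Eomes in the present passage was the member whose call it changed.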
